A study of Homo sapiens with 4 samples.

Results

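The genes that process sterol regulatory element-binding proteins (SREBPs) and carry sterol feedback were followed after knockdown of ACTL6A in SNU638, an established line of human gastric cancer cells. ACTL6A is an actin-related subunit of chromatin-remodelling complexes. The genes were taken by name as MBTPS1, MBTPS2, SCAP, SREBF1, SREBF2, INSIG1, INSIG2 and SQLE, with every array probe set annotated to exactly 1 of them. That gave 8 of the 19775 genes with such a probe set and 19 of 41091 probe sets. The group was assembled around MBTPS2, a gene chosen by its measured log2 difference between sh-ACTL6A and scramble arrays in the comparison used here. The differences of the 8 genes are therefore given as descriptions, without p-values. A further probe set, annotated to both MBTPS2 and the gene YY2 that lies within it, was not counted among the 19.

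Signals came from 4 oligonucleotide arrays of 1 colour, each hybridised with biotin-labelled cRNA of these cells. In the sh-ACTL6A group (2 arrays) cells carried a lentiviral pLKO.1 short hairpin RNA (shRNA) against ACTL6A, and in the scramble group (2 arrays) a scrambled control RNA, with 1 culture and infection protocol, including puromycin selection, given for all arrays. Neither the hairpin used for each sh-ACTL6A array nor separate cultures are stated in the labels, so the errors measure the spread between arrays, which may be technical. All values are from a single cell line, and in such bulk RNA fewer cells of a kind and less RNA per cell cannot be told apart.

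SREBPs are made as membrane proteins of the endoplasmic reticulum, where the escort SCAP holds them. When membrane sterol is low, SCAP carries them to the Golgi, and site-1 protease (MBTPS1) and then site-2 protease (MBTPS2) cut them, which frees a transcription factor that enters the nucleus. INSIG proteins retain SCAP when sterol is high, and SREBP targets include the enzymes of sterol synthesis and INSIG1 itself, which closes the loop.

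ACTL6A fell by 1.63 on the log2 scale in sh-ACTL6A cells (SE 0.14, limma adjusted p = 0.0408), at 10.16 and 10.32 on the sh-ACTL6A arrays and 11.92 and 11.82 on the scramble arrays. It was the gene called among the 12286 tested, with 0 higher and 1 lower, or 0.00814% of genes, while 676 genes (5.5%) had an unadjusted p under 0.05. Over every probe set, 0 of 54613 were called (0%), with 2735 at an unadjusted p under 0.05 and 0 called by the methods' test after adjustment. Groups did not overlap for 34.6% of genes and 33.8% of probe sets, so a separation of both pairs of arrays is common here. Of 6 epithelial markers 5 exceeded the signal threshold, with EPCAM at 13.63 and 13.52 on the sh-ACTL6A arrays and 13.67 and 13.61 on the scramble arrays, while CLDN4 lay below it. Of these 5 markers 4 had differences below 0, and KRT18, at 14.12 and 14.28 on the sh-ACTL6A arrays and 14.51 and 14.58 on the scramble arrays, did not overlap (difference -0.34, limma adjusted p = 0.595). The pan-leukocyte marker PTPRC had a mean log2 signal of 2.77, and 2 of 5 leukocyte markers with a probe set and 2 of 6 fibroblast and endothelial markers passed the threshold of 5.63.

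Of the 8 genes, MBTPS2 differed most. Its brightest probe set (226760_at) read 9.64 and 10.38 on the sh-ACTL6A arrays, against 11.20 and 10.83 on the scramble arrays. Both sh-ACTL6A arrays were lower than both scramble arrays, and sh-ACTL6A replicate 1 was the lowest. Mean log2 signal was 10.01 ± 0.52 (SD, n = 2) in sh-ACTL6A and 11.02 ± 0.26 (SD, n = 2) in scramble. The difference was -1.01 ± 0.26 (SE), which is a fold of 0.498. Differences of at least 1 in either direction were seen for 0.936% of tested genes, and 103 of those 115 genes had a mean log2 signal under 8, whereas that of MBTPS2 was 10.5. The gene was picked for this value, so neither its size nor its direction is independent evidence.

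The other MBTPS2 probe sets were read from the same RNA on the same arrays. MBTPS2 was picked for its difference on these arrays, so the values of its other probe sets are not independent evidence either. They are given as a description. The 206473_at probe set read 7.42 and 7.63 on the sh-ACTL6A arrays, against 7.999 and 8.02 on the scramble arrays, again without overlap. Its difference was -0.49 ± 0.22 (SE), a fold of 0.714. The dim 1554604_at did not reach the signal threshold. It read 1.98 and 4.72 on the sh-ACTL6A arrays and 5.44 and 2.77 on the scramble arrays, so that the groups overlapped and its difference of -0.75 ± 1.29 (SE) was smaller than its error. Over the alternatives that fitted each probe set, left-out arrays included, the difference stayed between -1.38 and -0.64 for the brightest probe set and between -0.59 and -0.38 for 206473_at. Since the groups did not overlap at either probe set, leaving out 1 array could not turn the sign. The lower end of the first range is the value of sh-ACTL6A replicate 1 against the scramble mean and the upper end that of replicate 2.

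MBTPS1, the serine protease that makes the first cut, did not share this pattern. The 201620_at probe set read 10.25 and 10.69 on the sh-ACTL6A arrays, against 10.41 and 10.58 on the scramble arrays, which lie between them. Its difference was -0.02 ± 0.17 (SE). A second probe set (217543_s_at) read 8.17 and 8.60 on the sh-ACTL6A arrays and 7.57 and 8.45 on the scramble arrays and differed by 0.37 ± 0.33 (SE). The sign thus depended on the probe set. SCAP, the escort, was measured by 1 probe set, which read 9.31 and 9.42 on the sh-ACTL6A arrays and 8.92 and 9.45 on the scramble arrays. Its difference of 0.18 ± 0.21 (SE) was within its error, and the sh-ACTL6A arrays lay inside the scramble range.

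**Figure D1:**
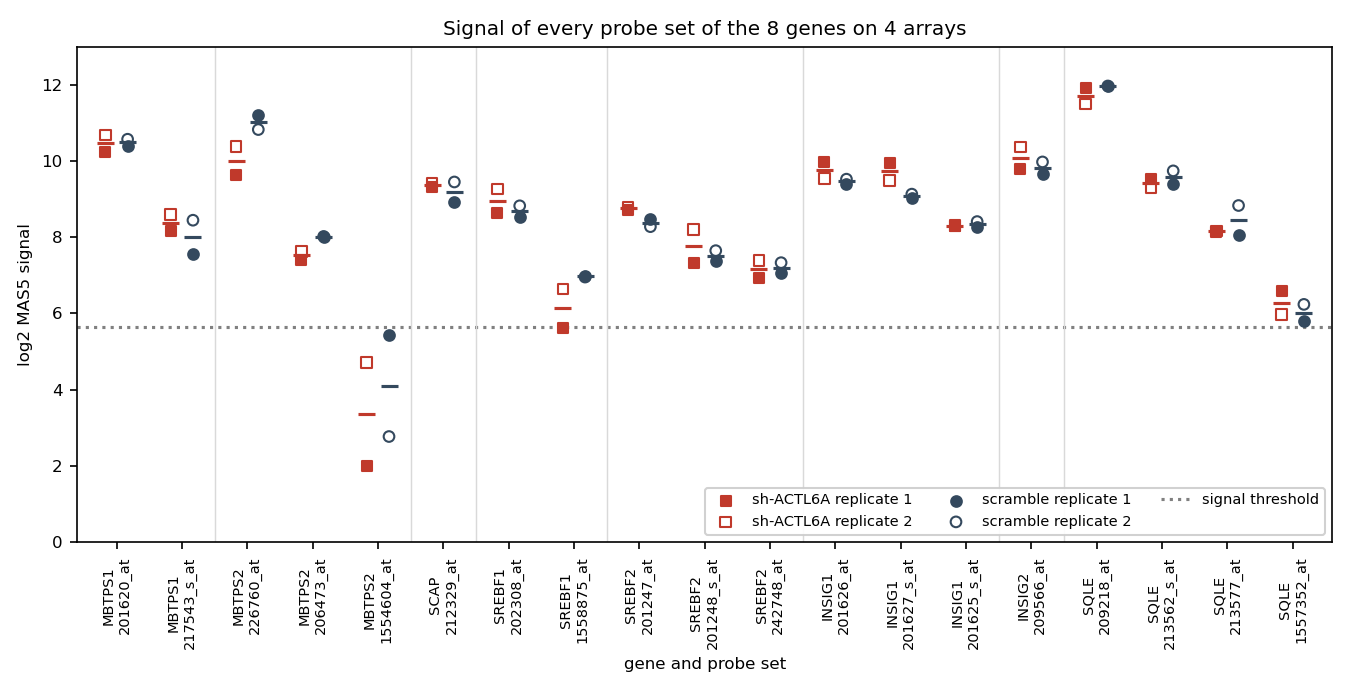
Log2 MAS5 signal (vertical axis) of all 19 probe sets of the 8 genes (horizontal axis), with squares for sh-ACTL6A arrays, circles for scramble arrays (n = 2 each), filled for replicate 1 and open for replicate 2, short bars for group means and a dotted line at the signal threshold of 5.63. The 2 brighter MBTPS2 probe sets are lower on both sh-ACTL6A arrays, and the groups overlap for 12 of the 19 probe sets.

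The SREBP precursors are encoded by SREBF1 and SREBF2, of which SREBP2 acts mainly on sterol synthesis and SREBP1 mainly on fatty acid synthesis. The brightest SREBF2 probe set (201247_at) read 8.73 and 8.80 on the sh-ACTL6A arrays, against 8.49 and 8.28 on the scramble arrays. Both sh-ACTL6A arrays were higher, by 0.38 ± 0.18 (SE) on average, a fold of 1.30. The other SREBF2 probe sets overlapped between groups. The 201248_s_at probe set read 7.32 and 8.21 against 7.38 and 7.65 in scramble (difference 0.25 ± 0.34, SE), and 242748_at read 6.92 and 7.39 against 7.06 and 7.33 (difference -0.04 ± 0.29, SE). SREBF1 gave opposite signs. Its brighter probe set (202308_at) read 8.63 and 9.27 on the sh-ACTL6A arrays and 8.53 and 8.83 on the scramble arrays, a difference of 0.27 ± 0.25 (SE) with overlap. The dimmer 1558875_at read 5.63 and 6.65 against 6.99 and 6.96 in scramble, lower on both sh-ACTL6A arrays by a mean difference of -0.84 ± 0.42 (SE). With both probe sets averaged SREBF1 differed by -0.28.

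INSIG1, the feedback inhibitor whose own gene is induced by SREBPs, was measured by 3 probe sets that did not give 1 answer. The 201627_s_at probe set read 9.96 and 9.50 on the sh-ACTL6A arrays, against 9.02 and 9.13 on the scramble arrays. Both sh-ACTL6A arrays were higher, with a difference of 0.65 ± 0.19 (SE) and a fold of 1.57. The slightly brighter 201626_at read 9.98 and 9.54 against 9.41 and 9.53, so that sh-ACTL6A replicate 2 exceeded the higher scramble array by only a small margin. Its difference was 0.29 ± 0.19 (SE). The 201625_s_at probe set overlapped between groups, at 8.30 on both sh-ACTL6A arrays and 8.27 and 8.41 on the scramble arrays (difference -0.04 ± 0.18, SE). INSIG2, the paralogue that also retains SCAP, read 9.78 and 10.37 on the sh-ACTL6A arrays and 9.67 and 9.98 on the scramble arrays. It differed by 0.25 ± 0.22 (SE) with overlapping groups, and lay at -0.04 against the scramble mean on sh-ACTL6A replicate 1.

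SQLE, squalene epoxidase, makes the first oxygenated intermediate of sterol synthesis and is an SREBP2 target. Its brightest probe set (209218_at) read 11.91 and 11.50 on the sh-ACTL6A arrays, against 11.99 and 11.98 on the scramble arrays. Both sh-ACTL6A arrays were lower, replicate 2 by more, with a difference of -0.27 ± 0.15 (SE) and a fold of 0.828. The 213562_s_at probe set read 9.53 and 9.31 against 9.41 and 9.75 (difference -0.16 ± 0.18, SE), and 213577_at read 8.14 and 8.17 against 8.07 and 8.84 (difference -0.30 ± 0.28, SE). Both overlapped between groups. The dimmest, 1557352_at, read 6.59 and 5.97 against 5.80 and 6.24 and differed by 0.26 ± 0.42 (SE).

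Over the brightest probe sets, 5 of the 8 genes lay above 0 and 3 below, with a median difference of 0.21, beside 0.01 over all genes tested. None was among the called genes. Groups did not overlap for 4 of 8 genes, 2 in each direction, beside 34.6% of all genes. Over all 19 probe sets 9 lay above 0 and 10 below, and 7 did not overlap, beside 33.8%. The sh-ACTL6A arrays themselves differed for these genes, with a median of -0.05 on replicate 1 and 0.21 on replicate 2 against the scramble mean.

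Replicates of a group differed as well. At the brightest probe set, sh-ACTL6A replicate 1 lay below replicate 2 for 6 of the 8 genes, and scramble replicate 1 below replicate 2 for 5, beside 48.6% and 46.2% of all genes tested. The ACTB control, read from the 3′ end minus the 5′ end, was 1.21 and 0.78 on the sh-ACTL6A arrays and 1.63 and 0.78 on the scramble arrays. Spike-in DapX was 10.37 and 10.51 on the sh-ACTL6A arrays and 9.95 and 10.24 on the scramble arrays. The part of either in the differences above was not tested.

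Promoter letters were read for the genes on which the description turns, MBTPS2 and, as the SREBP precursor and feedback genes whose brightest probe sets did not overlap between groups, SREBF2 and INSIG1. The RefSeq table (GRCh38.p14) held windows for 7 of the 8 genes. The 250 bases before the start are shown 5′ to 3′ on the strand of the gene, which is the plus strand for each, at chrX:21839367-21839616 for MBTPS2, chr22:41832855-41833104 for SREBF2 and chr7:155297628-155297877 for INSIG1. Capitals mark matches to the motifs searched.
MBTPS2: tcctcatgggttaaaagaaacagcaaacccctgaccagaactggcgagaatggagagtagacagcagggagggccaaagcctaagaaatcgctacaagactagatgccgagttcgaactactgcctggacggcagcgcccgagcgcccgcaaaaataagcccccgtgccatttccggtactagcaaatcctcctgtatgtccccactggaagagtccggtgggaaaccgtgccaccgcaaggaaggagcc
SREBF2: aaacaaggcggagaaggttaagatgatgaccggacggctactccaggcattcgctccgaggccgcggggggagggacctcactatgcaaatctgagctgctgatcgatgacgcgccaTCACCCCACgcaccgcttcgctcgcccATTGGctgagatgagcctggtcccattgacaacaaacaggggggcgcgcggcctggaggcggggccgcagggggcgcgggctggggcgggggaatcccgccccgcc
INSIG1: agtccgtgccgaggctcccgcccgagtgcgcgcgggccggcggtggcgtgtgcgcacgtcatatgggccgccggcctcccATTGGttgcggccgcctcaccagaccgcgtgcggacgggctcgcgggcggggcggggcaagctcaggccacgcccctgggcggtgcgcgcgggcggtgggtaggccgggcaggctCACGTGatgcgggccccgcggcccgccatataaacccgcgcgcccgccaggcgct

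The motifs were the sterol regulatory element TCACNCCAC, to which SREBPs bind, the E box CACGTG, which basic helix-loop-helix factors including SREBPs can bind, the CCAAT box, the site of NF-Y, and TGACGTGG, bound by the protease substrate ATF6. Both strands were searched over 250 bases before and 50 after the start. The sterol regulatory element was found in the SREBF2 window, at position -133 counted from the start, and in 1.13% of 35116 windows in all. An inverted CCAAT box, a motif in 34.6% of windows, lay at -106 in SREBF2 and at -170 in INSIG1. The E box, in 7.26% of windows, lay at -55 in INSIG1 and at -58 in SCAP. TGACGTGG, in 0.729% of windows, was found in 1 of the 2 INSIG2 windows, from position 24 after the more downstream start. The MBTPS2, MBTPS1 and SREBF1 windows held none of the 4 letter strings. A match describes letters in the window and is no measurement of binding.

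Whether the MBTPS2 difference was met by a change in sterol target genes was examined in the other genes of the pathway. Of 20 enzymes of sterol synthesis besides SQLE, 15 were tested, 1 lay below the signal threshold and 4 are not analysed here. The limma fit over all genes called 0 of the 15 (0.00814% of all genes were called), and 6 lay above 0 and 9 below, with a median difference of -0.04, beside 0.01 over all genes. At an unadjusted p under 0.05 in the limma fit there were 1 higher and 2 lower, or 20%, beside 5.5% of all genes. The methods' test called 0 after adjustment. Groups did not overlap for 6 of the 15, beside 34.6% of all genes.

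HMGCS1, which makes the precursor of mevalonate and is a classical SREBP2 target, read 8.94 and 10.07 on the sh-ACTL6A arrays, against 9.76 and 9.60 on the scramble arrays. The sh-ACTL6A arrays lay on opposite sides of the scramble arrays. Its difference of -0.18 ± 0.33 (SE) had a 95% confidence interval of -0.94 to 0.59 (limma adjusted p = 0.971), and its further probe set differed by -0.25 with overlap. IDI1, the isopentenyl diphosphate isomerase, read 10.58 and 11.19 against 11.43 and 11.42, lower on both sh-ACTL6A arrays (difference -0.54 ± 0.20, SE, adjusted p = 0.855). A second bright IDI1 probe set differed by -0.49 without overlap, and the dimmer ones by 0.02 and -0.15. The suffix of the bright pair marks probes that can match other transcripts too. DHCR7, the last enzyme of 1 branch, read 10.69 and 10.37 on the sh-ACTL6A arrays and 11.22 and 10.81 on the scramble arrays (difference -0.49 ± 0.19, SE, adjusted p = 0.862), while its further probe set differed by 0.08 with overlap. LBR, the lamin B receptor, which is also a sterol reductase, went the other way, at 13.05 and 13.09 on the sh-ACTL6A arrays against 12.38 and 12.21 on the scramble arrays. Its difference of 0.77 ± 0.11 (SE), a fold of 1.70, had a 95% confidence interval of 0.51 to 1.02 and was not called (limma adjusted p = 0.212). The other 11 tested enzymes lay between -0.19 and 0.49, the upper end being TM7SF2, another sterol reductase, whose arrays overlapped.

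**Figure D2:**
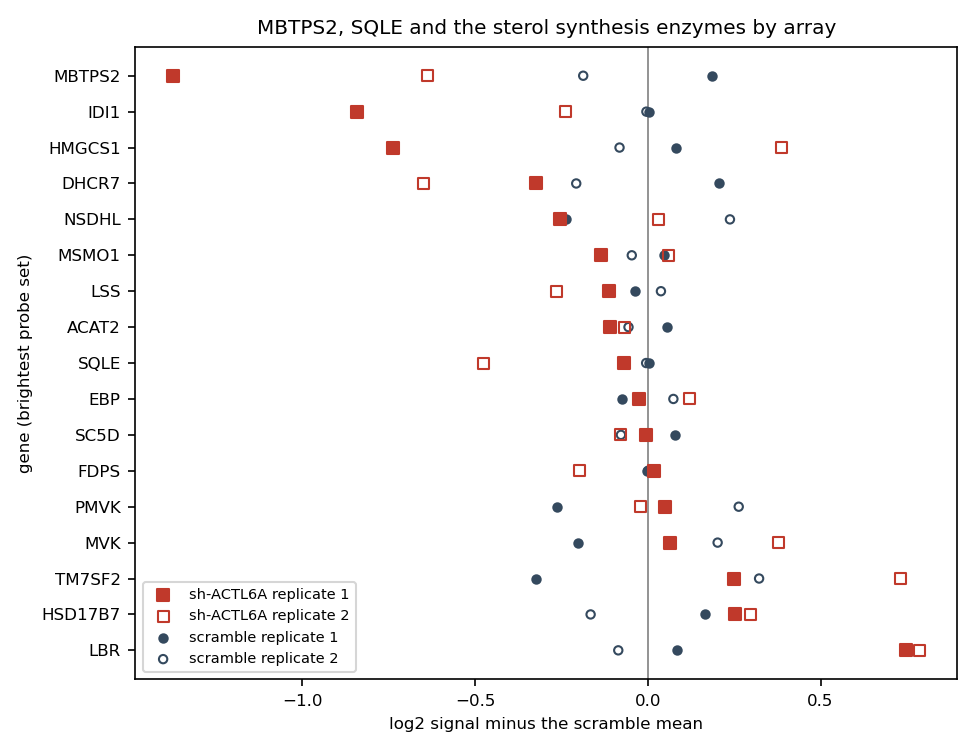
Log2 signal minus the scramble mean (horizontal axis) for MBTPS2, SQLE and the 15 sterol synthesis enzymes tested (vertical axis, brightest probe set of each gene), with squares for sh-ACTL6A arrays and circles for scramble arrays, filled for replicate 1 and open for replicate 2. MBTPS2 lies at -1.38 and -0.64 on the sh-ACTL6A arrays, HMGCS1 at -0.74 and 0.39 and LBR at 0.75 and 0.79.

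On the single sh-ACTL6A arrays, the median of the 15 enzymes against the scramble mean was -0.02 on replicate 1 and 0.03 on replicate 2, while MBTPS2 was lower on replicate 1. HMGCS1 and IDI1 were likewise lower on replicate 1, at -0.74 and -0.84, than on replicate 2, at 0.39 and -0.24. DHCR7, at -0.32 and -0.65, and SQLE, at -0.07 and -0.48, had the reverse order. These values share the scramble arrays and are set side by side as a description.

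Of 6 further SREBP targets of sterol uptake and handling, 4 were tested and 0 called, with differences between -0.12 and 0.08 and a median of 0.01. TMEM97, a regulator of the lysosomal sterol transporter NPC1, differed by 0.08 ± 0.13 (SE, limma adjusted p = 0.967), NPC1 by 0.07 ± 0.15 (SE, adjusted p = 0.972) and MMAB, a cobalamin enzyme gene next to the mevalonate kinase gene, by -0.12 ± 0.23 (SE, adjusted p = 0.971). Groups overlapped for all 4 at their brightest probe set, but not for 4 of the 12 probe sets of these genes, beside 33.8% of all probe sets. Further TMEM97 probe sets were higher on both sh-ACTL6A arrays, 212282_at by 0.20 ± 0.11 (SE) and 212279_at by 0.25 ± 0.12 (SE). The dim NPC1 probe sets 217584_at and 238873_at were higher by 1.06 ± 0.56 and 2.63 ± 0.95 (SE) without overlap, both with mean signals below the threshold of 5.63, and with probe sets averaged NPC1 differed by 0.95. Of 15 fatty acid synthesis genes, which respond mainly to SREBP1, 12 were tested and 0 called, with 7 above 0 and 5 below and a median of 0.06. FASN, the fatty acid synthase, read 10.60 and 11.04 on the sh-ACTL6A arrays and 10.17 and 10.93 on the scramble arrays (difference 0.27 ± 0.26, SE, adjusted p = 0.945). SCD, the stearoyl-CoA desaturase, read 12.25 and 12.11 against 11.95 and 12.07 (0.17 ± 0.12, SE, adjusted p = 0.932). GPAM, an acyltransferase of glycerolipid synthesis, and ELOVL6, a fatty acid elongase, differed by -0.26 and -0.28, with overlap.

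The other substrates of the same proteases are membrane-bound transcription factors such as ATF6, a sensor of protein folding stress, and, for MBTPS1 alone, GNPTAB. Of 8 listed, 6 were tested and 0 called, with 5 above 0 and 1 below and a median of 0.10. The 2 others lay below the signal threshold. Of these, CREB3L1 differed by -2.37 ± 0.61 (SE) without overlap at 213059_at, where the mean log2 signal was 4.63. At its other probe set, 213498_at, it differed by 0.68 ± 0.85 (SE) with overlap. ATF6 differed by 0.27 ± 0.21 (SE, limma adjusted p = 0.941) at its brightest probe set, which overlapped. Its next probe set, 203952_at, was lower on both sh-ACTL6A arrays by a mean difference of -0.53 ± 0.27 (SE), a dimmer one, 231927_at, was higher on both by 0.42 ± 0.24 (SE), and their average with the rest was 0.02. CREB3L4 differed by 0.23 ± 0.22 (SE, adjusted p = 0.948) and CREB3 by 0.12 ± 0.19 (SE, adjusted p = 0.966). All 12 genes of the vesicles that carry SCAP and SREBPs and of their helpers were tested and 0 called, with a median of -0.01. SEC23B, a coat protein of these vesicles, read 12.17 and 11.37 on the sh-ACTL6A arrays and 12.56 and 12.26 on the scramble arrays, a difference of -0.64 ± 0.25 (SE, adjusted p = 0.862). Its further probe sets differed by -0.72 and -0.75 with overlap, with sh-ACTL6A replicate 2 the lowest array in each. The remaining 11 transport genes lay between -0.14 and 0.15 at their brightest probe sets. SAR1B, a GTPase that starts coat assembly, was -0.14 there, while its dimmer 223512_at and 226742_at were lower on both sh-ACTL6A arrays by mean differences of -0.52 ± 0.18 and -0.50 ± 0.23 (SE). In sterol-regulated degradation, 11 of 13 genes were tested and 0 called, with 5 above 0 and 6 below and a median of -0.05. Groups did not overlap for 5 of the 11, beside 34.6% of all genes. RNF145, ERLIN1 and RNF139 were higher by 0.11 to 0.12 and AUP1 and UFD1 lower. Over the 26 probe sets of the degradation genes 17 lay above 0 and 9 below, with a median of 0.12. The smallest p-values were those of AUP1, an adaptor for ubiquitin conjugation at lipid droplets and the endoplasmic reticulum, at -0.34 ± 0.18 (SE, adjusted p = 0.918), UFD1, a cofactor of the segregase VCP, at -0.15 ± 0.10 (SE, adjusted p = 0.927) and FAF2, a membrane anchor for VCP, at -0.27 ± 0.20 (SE, adjusted p = 0.941).

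Liver X receptors (LXRs) respond to high sterol, whereas SREBPs are carried to the Golgi and cut when membrane sterol is low. Of 9 LXR receptors and targets 7 were tested and 0 called, with 5 above 0 and 2 below, a median of 0.19 and 2 of 7 at an unadjusted p under 0.05, both higher, beside 5.5% of all genes. Groups did not overlap for 3 of the 7, beside 34.6%. LPCAT3, a phospholipid-remodelling enzyme, read 9.28 and 9.84 on the sh-ACTL6A arrays and 8.65 and 9.20 on the scramble arrays (difference 0.63 ± 0.26, SE, limma adjusted p = 0.885), while its dimmer probe set differed by -0.19 without overlap. APOE, a lipid carrier, read 6.93 and 6.86 against 6.12 and 6.25 (0.71 ± 0.30, SE, adjusted p = 0.906), and its other probe sets differed by -0.55 and 0.14 with overlap. Among 8 tested genes of sterol handling (median 0.00325), 0 were called. LIPA, the lysosomal acid lipase, differed by 0.32 ± 0.16 (SE, adjusted p = 0.918), and the sterol transfer protein gene GRAMD1B by -1.33 ± 0.67 (SE, adjusted p = 0.918), a value set by sh-ACTL6A replicate 2, at 4.56 against 6.89 on replicate 1 and 7.08 and 7.02 in scramble.

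**Figure D3:**
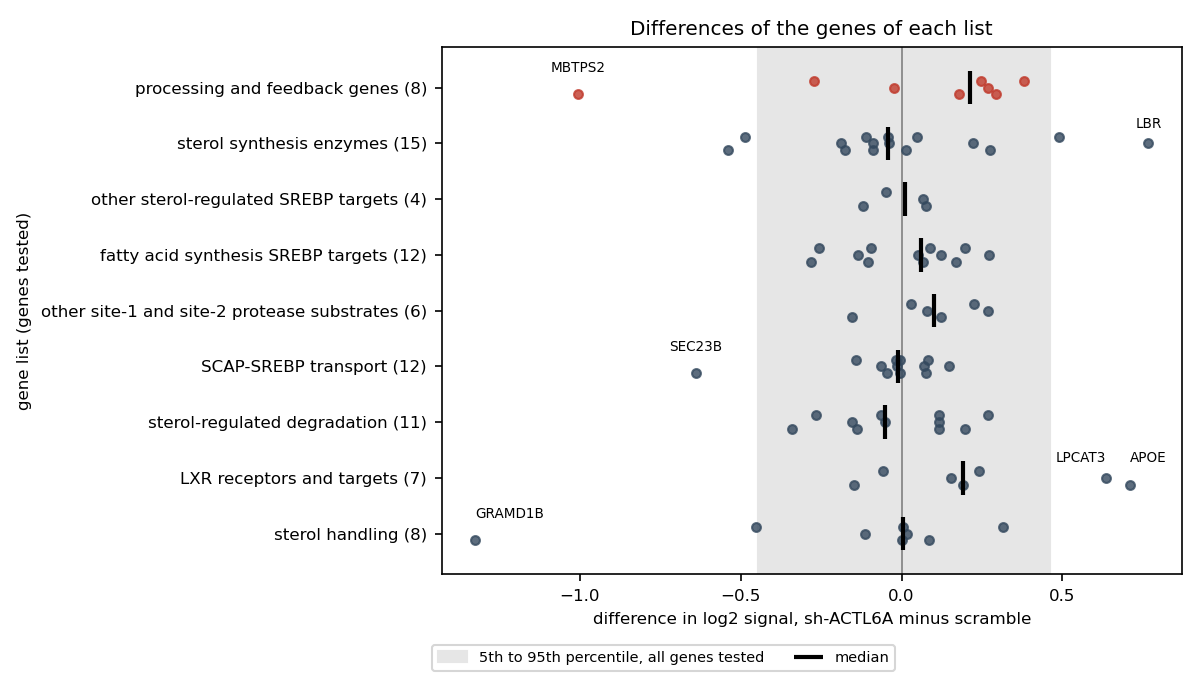
Difference in log2 signal, sh-ACTL6A minus scramble (horizontal axis), of each tested gene of the processing and feedback genes (red) and of the other pathway lists (vertical axis, number tested in brackets), where a black bar marks each median. The grey band spans the 5th to 95th percentile of all 12286 genes, from -0.45 to 0.46, and MBTPS2 lies below it at -1.01.

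The genes whose 4 arrays followed MBTPS2 most closely were REG4, SLC67A1-AS, SKOR1-AS1, GRM5 and TAPBPL, at a root mean square distance of 0.0588 to 0.121 on the log2 scale after each gene was centred on its own mean. Out of 12285 genes compared over 4 arrays, these were chosen for likeness alone, and each had a mean log2 signal between 5.71 and 6.51, close to the signal threshold and dimmer than MBTPS2. None of them belongs to the lists above.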

How the data were processed

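Gene expression in SNU638 cells was measured on 2 sh-ACTL6A and 2 scramble arrays. Each array has a deposited log2 signal for 54675 probe sets. MAS5, named in the notes of the submitters on processing (version not given in the sources used here), summarises each array alone, and the 2% trimmed mean of the linear signal was 500.0 on every array, so a global scaling is part of the values. At low signal MAS5 values scatter strongly between arrays. Groups came from the labels.

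Symbols came from GEO's platform table, where 41091 of 54613 non-control probe sets had 1 symbol, 1801 several and 11721 none. Each gene was represented by its brightest probe set and tested if its mean log2 signal reached the 50th percentile of non-control probe sets (5.63). Differences, sh-ACTL6A minus scramble, were fitted with limma 3.58.1 in R 4.3.3 (intensity trend, 2-sided, Benjamini-Hochberg adjustment, threshold 0.05) over 12286 genes, and over every probe set for the values of the 8 genes. The fit was tested on simulated data.

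Members and lists were chosen with earlier results of these data known. Named were the 8 genes, ACTL6A, 5 fixed targets, up to 3 genes per list by smallest unadjusted p, and the 5 profiles nearest to MBTPS2. Items covered by this rule that are missing from the text are not reported here. Alternatives were quantile normalisation, median centring, other filters, averaged probe sets, an offset of 16, no trend, the replicate block, the methods' unpaired t-test, and each array left out.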

Additional observations from a re-analysis of the deposited data

How the results depend on the processing

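With all 4 arrays, no alternative called any of the 8 genes or of the sterol synthesis enzymes. The number of genes called was 0 after quantile normalisation, with no filter on dim genes, without the intensity trend and in the methods' t-test, and 1 with median centring, the stricter filter, averaged probe sets and the offset. The titles number the arrays of both groups 1 and 2, but deviations of same-numbered arrays from their group means correlated at only 0.056 across genes, so the numbers were not taken as pairs. The replicate block called 2 genes, none of the 8, and, over every probe set, 3. The median of the sterol synthesis enzymes was -0.0886 with the stricter filter, which keeps 13 of them.

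Leaving out 1 array moved the number of genes called between 0 and 401, the number of sterol synthesis enzymes called between 0 and 3 and their median between -0.0849 and 0.0315. Such fits take the spread of the single array left in a group to be that of the other group. LBR was called without either sh-ACTL6A array and, without replicate 2, also HMGCS1 (-0.74), IDI1 (-0.84) and MBTPS2 (-1.38). MBTPS2 had been picked for its difference on these arrays. SQLE (-0.48), SEC23B, LPCAT3, GRAMD1B, AUP1 and FAF2 entered without sh-ACTL6A replicate 1. Without either scramble array, no gene was called. ACTL6A had an adjusted p of 0.052 after quantile normalisation, 0.0797 with no filter, 0.556 without the trend and 0.844 in the methods' t-test.

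Signs turned with averaged probe sets for MBTPS1 (0.18), SREBF1 (-0.28) and LIPA (-0.0221), and with median centring for MBTPS1 (0.0086). With 1 array left out, the differences ranged from -0.24 to 0.19 for MBTPS1, -0.087 to 0.44 for SCAP, -0.052 to 0.59 for SREBF1, -0.044 to 0.54 for INSIG2, -0.74 to 0.39 for HMGCS1, -0.11 to 0.65 for FASN, -0.62 to 0.0597 for ELOVL6, -0.072 to 0.22 for TMEM97, -0.31 to 0.075 for MMAB, -0.0029 to 0.14 for NPC1, -0.094 to 0.39 for PAQR3, -0.58 to 0.049 for FAF2, -0.11 to 0.35 for CREB3 and -0.31 to 0.0090 for RXRB. Without a change of sign, they ranged from 0.07 to 0.52 for INSIG1, -0.48 to -0.07 for SQLE, -1.04 to -0.24 for SEC23B, -0.69 to -0.28 for DHCR7, 0.06 to 0.48 for ATF6, -0.44 to -0.07 for GPAM, -2.49 to -0.16 for GRAMD1B and -0.60 to -0.09 for AUP1. The cause was not tested. For MBTPS2, INSIG1, SQLE and SREBF2 the groups did not overlap at the brightest probe set, so leaving out 1 array could not turn the sign. Dropping the trend, the replicate block and the t-test change only the error and return the same difference. Within these limits, MBTPS2, INSIG1 and SQLE kept the sign of the gene's value under each alternative run, and SREBF2 in all but the stricter filter, which removes it. Of their further probe sets, MBTPS2 1554604_at (-2.12 to 0.62), SREBF2 201248_s_at (-0.20 to 0.70) and 242748_at (-0.28 to 0.19), INSIG1 201625_s_at (-0.11 to 0.03) and SQLE 213562_s_at (-0.33 to 0.0070), 213577_at (-0.68 to 0.09) and 1557352_at (-0.05 to 0.57) turned. Averaged probe sets gave 0.95 for NPC1, 0.02 for ATF6, 0.10 for APOE and 0.22 for LPCAT3. The number of arrays, 2 per group, limits the precision of each difference, and only 1 of the 19 probe sets lay below the signal threshold.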
